A study of Mus musculus with 30 samples.

Results

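The 36 mouse genes described here belong to 2 linked stress programmes, that of the endoplasmic reticulum (ER) and that of amino acid shortage. They are the probe sets of 2 Affymetrix arrays, MOE430A and MOE430B, whose only annotated gene symbol is 1 of the 36 names, which gave 87 probe sets among the 35041 with 1 symbol (36 of 18193 genes). Of these, 69 probe sets from 33 genes were bright enough to be tested, against 23595 probe sets and 13882 genes in all, and Edem1, Atf3 and Nupr1 were not. RNA came from mouse neurospheres, floating clusters of neural precursors, started from the basal ganglia at embryonic day 14 and cultured over 7 days in DMEM:F12 medium supplemented with N2 and B27. The 6 PDGF samples were grown with PDGF-AA (label dose 100 ng/ml) from the anterior entopeduncular area. The 3 PDGF with NT-3 samples came from the same area and were grown with PDGF-AA and neurotrophin-3, for both of which the label value is 100, with a unit of ng/ul that no other source here bears out. The source of the 6 EGF samples was both ganglionic eminences, medial and lateral, so the factor and the region differ together between EGF and PDGF and cannot be told apart. Titles and the purification protocol place these samples with EGF, while their growth protocol names PDGF-AA. The sources used here do not give strain, sex or how many embryos were pooled.

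Unfolded protein in the ER lumen frees the chaperone Hspa5 (BiP) from 3 sensors. One of them splices Xbp1 mRNA, another is Atf6 itself, and the third slows translation while favouring that of Atf4. Shortage of amino acids reaches Atf4 through another kinase, and ATF4 protein then raises genes for asparagine and serine synthesis, one-carbon metabolism and feedback proteins such as Trib3. In proliferating precursors the same enzymes also serve growth, so their RNA does not show stress by itself.

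Both groups of promoters are known for short regulatory motifs, and these were sought in RefSeq windows from 250 bases before to 50 bases after the gene start (assembly GRCm38.p6, both strands), available for 32 of the 36 genes. The ER stress element, ERSE, is CCAAT and CCACG separated by 9 bases. It was present in Calr, Canx, Creld2, Dnajc3, Hsp90b1, Hspa5 and Pdia6 (7 of 32 genes, 21.9%), against 37 of 27025 genes in the table (0.137%). Each of these 7 encodes a chaperone or folding enzyme. ERSE-II, which is ATTGG and CCACG separated by 1 base, was present in Herpud1 alone among the members (3.12%) and in 0.0444% of all genes. The core TGACGTGG of the element bound by XBP1 was present in 0 of the 32 genes and in 0.714% of all genes. The C/EBP-ATF response element, CARE, searched as TGATGNAA, was present in Asns, Atf3, Chac1, Herpud1, Nupr1, Trib3 and Vldlr (21.9%), against 4.51% of all genes. The 150 bases just before the start are printed for the 3 folding genes with an ERSE that rose in a comparison below, for Asns, which fell in a pair of comparisons, and for Herpud1, the only gene with 2 kinds of match. Capitals mark the matches. In Creld2 and in the CARE of Herpud1 they run on the opposite strand.
Hspa5 (chr2:34771940-34772089, plus strand): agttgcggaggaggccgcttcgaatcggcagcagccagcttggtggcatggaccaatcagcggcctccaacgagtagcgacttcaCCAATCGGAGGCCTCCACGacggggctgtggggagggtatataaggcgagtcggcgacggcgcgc
Pdia6 (chr12:17266439-17266588, plus strand): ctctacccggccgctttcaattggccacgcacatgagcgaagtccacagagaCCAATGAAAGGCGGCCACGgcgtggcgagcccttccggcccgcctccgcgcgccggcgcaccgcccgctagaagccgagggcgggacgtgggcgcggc
Creld2 (chr15:88819496-88819645, plus strand): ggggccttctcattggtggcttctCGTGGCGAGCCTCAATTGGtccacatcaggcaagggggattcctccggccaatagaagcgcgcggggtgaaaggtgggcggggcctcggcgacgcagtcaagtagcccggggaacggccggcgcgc
Asns (chr6:7693210-7693359, minus strand): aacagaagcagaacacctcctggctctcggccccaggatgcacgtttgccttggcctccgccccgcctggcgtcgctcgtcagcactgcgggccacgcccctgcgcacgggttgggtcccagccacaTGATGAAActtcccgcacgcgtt
Herpud1 (chr8:94386279-94386428, plus strand): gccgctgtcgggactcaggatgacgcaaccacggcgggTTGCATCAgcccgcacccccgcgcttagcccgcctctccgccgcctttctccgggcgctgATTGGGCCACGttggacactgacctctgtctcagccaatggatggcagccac

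**Figure D1:**
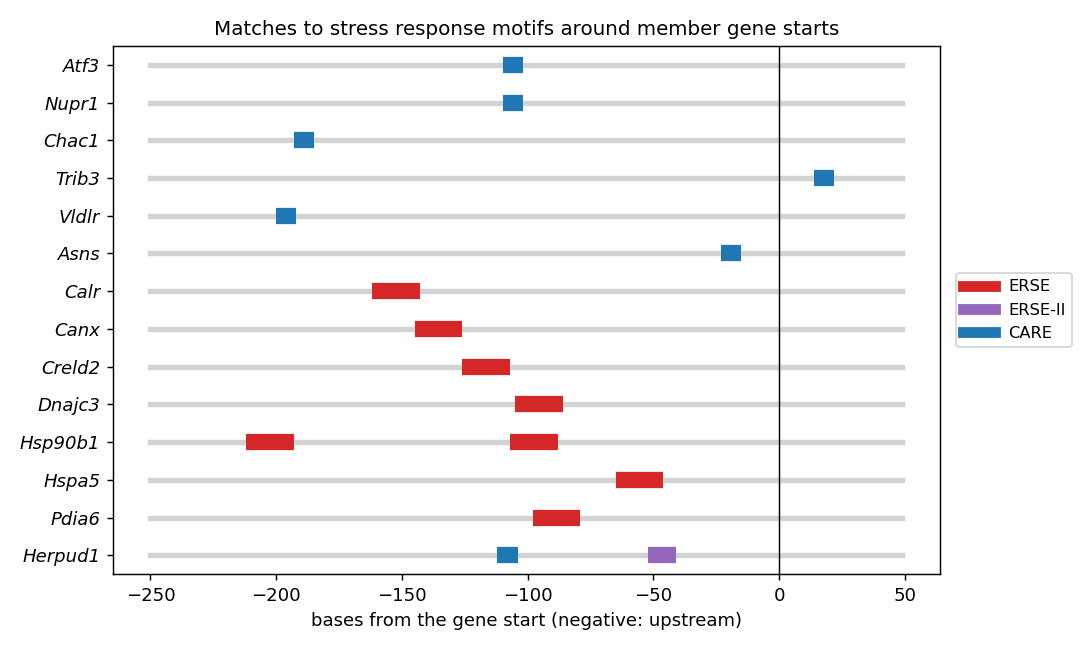
Matches to ERSE, ERSE-II and CARE around the starts of the 14 member genes that hold any, by distance in bases from the gene start (grey lines show the searched window, coloured blocks the matches). The 8 ERSE matches of 7 folding genes lie between −212 and −47 relative to the start.

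Values below are array signals on the authors' linear scale, and differences are log2 of signal plus a small constant (52.0 on MOE430A and 115 on MOE430B), given ± SE. A call means an adjusted p under 0.05 from limma fitted to all 15 samples and adjusted by Benjamini-Hochberg over 23595 probe sets, two-sided. A gene is represented by its leading probe set, the brightest on MOE430A or, failing that, on MOE430B. Signals of different probe sets are not compared, since each binds its target with its own strength. Since no label says that replicates were separate cultures, the tests rest on the spread among these particular samples, which may be technical. EGF and PDGF arrays were shared evenly over 3 fluidics runs, while the NT-3 samples shared 0 runs with them, so for NT-3 run and condition cannot be told apart. The log2 ratio of 3' to 5' Actb control probe sets on MOE430A was 3.00 ± 0.23 (SD, n = 6) with PDGF, 2.98 ± 0.33 with EGF (n = 6) and 3.51 ± 0.27 with NT-3 (n = 3). For NT-3 against PDGF the exact permutation p was 0.0238, or 0.0952 adjusted over 12 tests. For Gapdh on MOE430A it was 0.452, and on MOE430B 0.0476 for Actb and 0.0357 for Gapdh (both 0.0952 adjusted). For EGF against NT-3 it was 0.0476 and 0.25 for Actb and Gapdh on MOE430A. On MOE430B it was 0.0119 for both (0.0714 adjusted), the smallest p these sample numbers allow. The mean ratio was higher with NT-3 in each of these comparisons. Summed signals of 5 markers of oligodendrocyte progenitors ran from 77928 to 102872 with PDGF, 46942 to 63152 with EGF and 133795 to 162621 with NT-3. Such sums follow the brightest probe set, here Olig1, with means of 60702, 42887 and 104349. Means of Pdgfra were 10992, 979 and 18608, of Cspg4 3925, 853 and 8153, and of Sox10 8312, 1081 and 10674. Olig2 differed little, at 5818, 6472 and 5913. Of myelinating oligodendrocyte markers, 3 were tested and all 3 fell with NT-3 against PDGF: mean signals with PDGF, EGF and NT-3 were 21697, 25552 and 803 for Mbp, 914, 1508 and 82.1 for Mag, and 30621, 22739 and 14328 for Cnp. Summed signals of radial glia and astrocyte markers (5 genes) ran from 48297 to 65195, 60953 to 110200 and 70207 to 100057. Most of this sum was Fabp7, with means of 53075, 69942.5 and 86343 with PDGF, EGF and NT-3. Means were 465, 9171 and 836 for Gja1, 907, 5084 and 1984 for Slc1a3, and 262, 557 and 290 for Aqp4. Gfap stood lowest with NT-3, at 671, 930 and 143. Summed signals of neuronal markers (5 genes) ran from 52924 to 85159, 19492 to 37678 and 37193 to 64774. The part of cell makeup and RNA quality in the values below was not tested, and in such bulk RNA fewer cells of a type and less RNA per cell cannot be told apart.

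Only a minority of the stress genes differed between conditions, at shares of 15.2%, 24.2% and 15.2% in the 3 comparisons against 12.1%, 20.1% and 21.4% of all genes. For EGF against PDGF, 3 of the 33 genes were higher, where 6.06% of all genes were, and 2 were lower, where 5.99% were. For PDGF with NT-3 against PDGF, 6 were higher (7.02% of all genes) and 2 lower (13.1%). For EGF against PDGF with NT-3, 1 was higher (13.5% of all genes) and 4 were lower (7.91%). Counted over probe sets in either direction, 10 of 69 were called for EGF against PDGF (14.5%, all probe sets 10.7%), 20 for NT-3 against PDGF (29.0%, all 19.1%) and 14 for EGF against NT-3 (20.3%, all 20.2%). The members' median difference was −0.12 for EGF against PDGF (all genes −0.04), 0.18 for NT-3 against PDGF (all genes −0.13) and −0.02 for EGF against NT-3 (all genes 0.11). The 3 comparisons share samples and are not independent. The plot of differences by gene shows them by role.

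**Figure D2:**
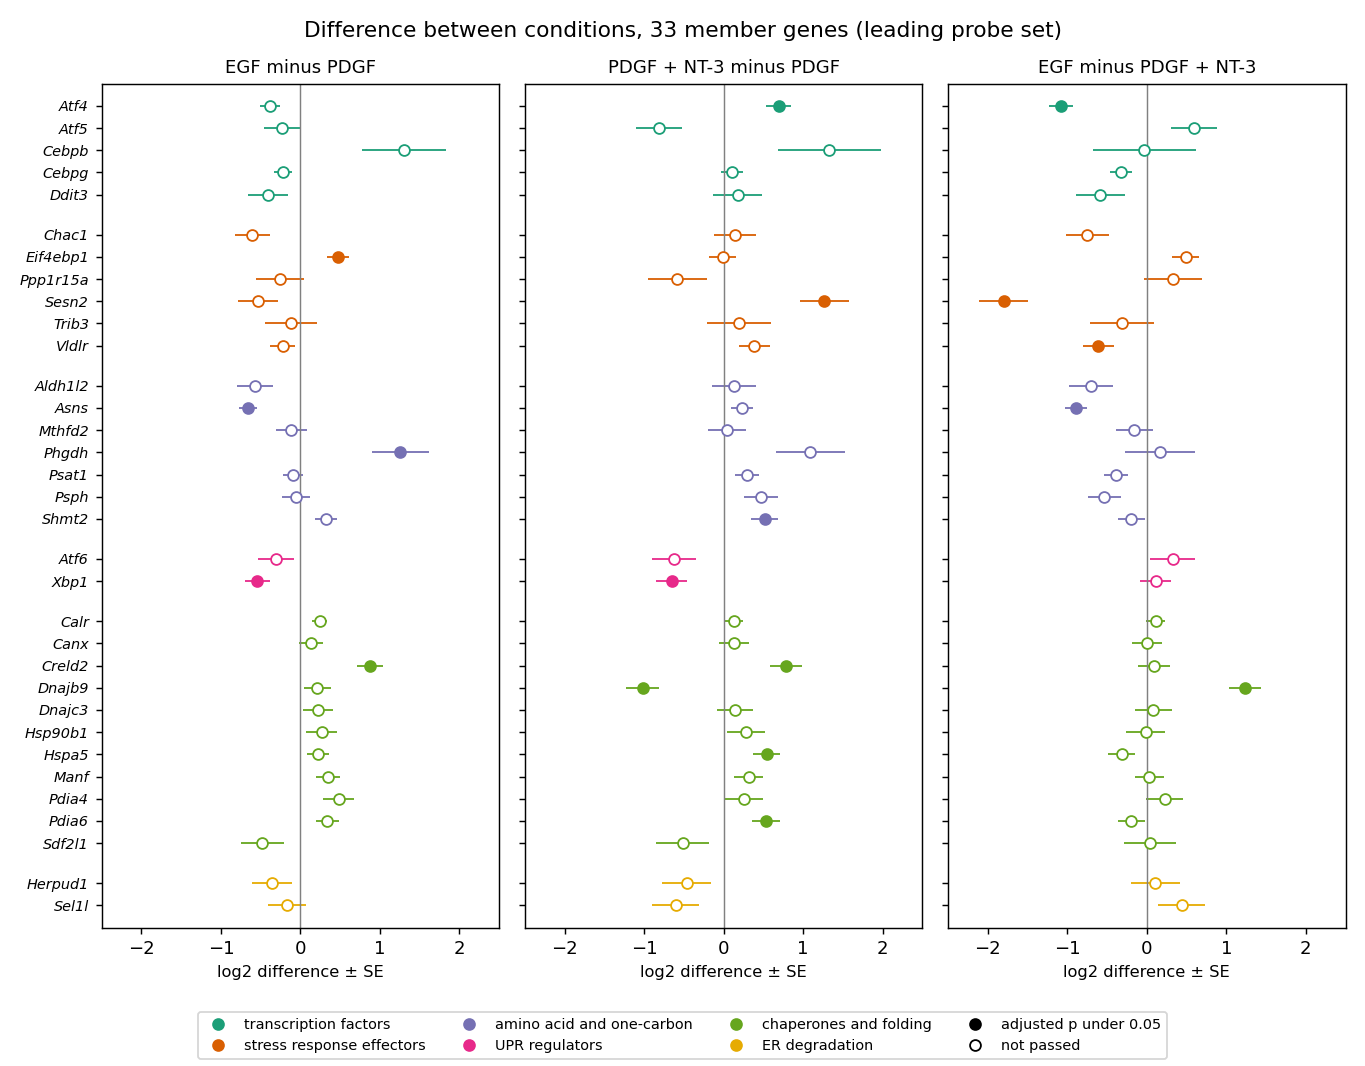
Log2 difference ± SE of the 33 tested member genes in the 3 comparisons, grouped by role; filled points have an adjusted p under 0.05. Asns and Xbp1 lie below 0 for EGF against PDGF, and Sesn2 has the largest called difference among the members, −1.80, when EGF is set against NT-3.

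Among the stress transcription factors, Atf4, which drives the amino acid response, was the 1 gene of 5 tested to be called, and it was highest with NT-3. Its signal lay between 5318 and 8645 with PDGF (median 7039), between 4125 and 6188 with EGF (median 5565), and at 10782, 12663 and 10520.3 in the 3 NT-3 samples. Every NT-3 sample was above every sample of the other conditions. Atf4 rose 1.62-fold with NT-3 over PDGF (0.69 ± 0.15, adjusted p = 0.0053) and was 2.11-fold lower with EGF than with NT-3 (−1.08 ± 0.15, adjusted p = 0.00013). With EGF against PDGF the difference of −0.38 ± 0.13 did not pass (adjusted p = 0.062). Its other tested probe set gave −0.26 ± 0.25 for NT-3 against PDGF and did not pass, and the mean of both no longer passed either (adjusted p = 0.246). For EGF against NT-3 that probe set gave −0.22 ± 0.25 and did not pass (adjusted p = 0.57), while the mean of both passed.

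None of the other tested factors passed in any comparison by limma. With EGF against PDGF, 2 of the 5 had an unadjusted limma p under 0.05, as did 3281 of all 13882 genes. The 2 were Atf4 itself (unadjusted limma p 0.00721) and Cebpb (0.0254). Atf5, a relative of Atf4, gave −0.82 ± 0.29 for NT-3 against PDGF (adjusted p = 0.0576), with NT-3 signals of 588, 347 and 1001 against 931 to 1259.8 with PDGF. Ddit3 (CHOP), a factor of prolonged ER stress, had medians of 1064 with PDGF and 1028 with EGF, and 1235, 1244 and 1483 with NT-3. Cebpg, a partner of Atf4, differed by 0.32 or less in size in each comparison on its leading probe set. Its other tested probe set went the other way without passing. It gave −0.73 ± 0.46 for NT-3 against PDGF and 0.95 ± 0.46 for EGF against NT-3. Cebpb, another partner, had a PDGF median of 73.0 and an EGF median of 462, but single samples spread from 54.5 to 415 and from 85.8 to 1128, and the difference of 1.30 ± 0.53 did not pass (adjusted p = 0.149). It reached the array's median on 3 arrays, all with EGF, and so was tested only through the condition in which it was high. Atf3 had signals of 590 or less, Nupr1 of 265 or less and Edem1 of 635 or less in every sample, and reached the array's median in fewer than 3 samples, so these genes gave no test.

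Of the 6 feedback proteins and effectors of the stress response, Sesn2 changed most, Eif4ebp1 and Vldlr changed in 1 comparison each, and Trib3, Chac1 and Ppp1r15a did not pass. Sesn2, a sestrin that restrains mTORC1 when amino acids run short, had signals of 1229.8 to 2001 with PDGF (median 1499) and 679 to 2060 with EGF (median 970), and 5112, 2519.5 and 4328 with NT-3. The NT-3 samples were above all others, though replicate 2 stood well below the remaining pair. Sesn2 rose 2.41-fold with NT-3 over PDGF (1.27 ± 0.31, adjusted p = 0.0088), and was 3.48-fold lower with EGF than with NT-3 (−1.80 ± 0.31, adjusted p = 0.00059). Without NT-3 replicate 1 the rise was 1.06 with an adjusted p of 0.0555, its second probe set gave −0.36 ± 0.38 and did not pass, and the mean of its 2 probe sets gave 0.46 and an adjusted p of 0.257. For EGF against NT-3 the second Sesn2 probe set gave −0.46 ± 0.38 and did not pass (adjusted p = 0.427), while the mean of both passed.

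Eif4ebp1 (4E-BP1), which binds the cap-binding factor eIF4E and holds back translation, had signals of 2006 to 2803 with PDGF (median 2330.4) and 2787 to 4055 with EGF (median 3044), and 2399, 1966 and 2595 with NT-3. It rose 1.39-fold with EGF over PDGF (0.48 ± 0.14, adjusted p = 0.0363), 1 PDGF sample lying just inside the EGF range. The call was lost with each array centred on its median (adjusted p = 0.0765), with no filter on signal (0.0565) and in 8 of 12 fits without 1 sample. A second probe set of Eif4ebp1 did not separate EGF from PDGF (0.69 ± 0.29, adjusted p = 0.152) but was 3.68-fold higher with NT-3 than with PDGF (1.88 ± 0.35, adjusted p = 0.00167), where the leading one gave −0.01 ± 0.17. Vldlr, a lipoprotein receptor raised by ATF4, ran from 3140 to 5942 with PDGF (median 5063) and from 3765 to 5289.8 with EGF (median 3893), and stood at 7683, 6076 and 5221 with NT-3. It was 1.53-fold lower with EGF than with NT-3 (−0.61 ± 0.19, adjusted p = 0.0327), and the highest EGF sample exceeded the lowest NT-3 sample. The direction depended on the probe set: a bright MOE430B probe set of Vldlr gave 0.67 ± 0.26 in that comparison without passing (adjusted p = 0.0786), and the mean over its probe sets gave −0.24 (adjusted p = 0.399). Chac1, which breaks down glutathione, gave −0.60 ± 0.22 for EGF against PDGF (adjusted p = 0.0947). Trib3, a feedback inhibitor of ATF4, and Ppp1r15a (GADD34), which restores translation, had adjusted p of 0.287 or more in each comparison.

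The genes of asparagine, serine and one-carbon synthesis divided within the EGF against PDGF comparison, with Asns lower and Phgdh higher. Asns, asparagine synthetase, had signals of 7881 to 11946 with PDGF (median 9169) and 5005 to 7244 with EGF (median 5759), and 12349, 9934 and 10600.2 with NT-3. All 6 EGF samples lay below all others. Asns fell 1.58-fold with EGF against PDGF (−0.66 ± 0.12, adjusted p = 0.000907) and 1.85-fold against NT-3 (−0.89 ± 0.14, adjusted p = 0.000339), and kept both calls under every alternative tried. Its second probe set gave −0.70 ± 0.16 and −1.29 ± 0.19, and also rose with NT-3 over PDGF (0.59 ± 0.19, adjusted p = 0.0384), where the leading one did not (0.23 ± 0.14, adjusted p = 0.277).

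Phgdh, the first enzyme of serine synthesis from glycolysis, ran from 2392 to 12006 with PDGF (median 6295) and from 6573 to 23285 with EGF (median 13571), with 10727, 12174 and 13574 with NT-3. The EGF and PDGF ranges overlapped widely, and its SE was the largest among the genes called. It rose 2.39-fold with EGF over PDGF (1.26 ± 0.36, adjusted p = 0.0299), and 7 of the 12 fits that leave out 1 EGF or PDGF sample did not pass (adjusted p 0.0501 to 0.0731). The 3 other Phgdh probe sets gave 0.65 ± 0.16, 1.23 ± 0.13 and 0.65 ± 0.13 with EGF, all called. With NT-3 over PDGF they gave 0.89 ± 0.19, 1.53 ± 0.15 and 1.60 ± 0.15, again all called, while the leading one gave 1.09 ± 0.44 (adjusted p = 0.0905). In the second of them every EGF sample (10134 to 12934) and every NT-3 sample (15606, 11654 and 14592) was above every PDGF sample (4069.7 to 6615). All 4 carry the manufacturer's suffix for probes that can bind related transcripts, as do the leading probe sets of Eif4ebp1, Vldlr and Shmt2. The second probe sets of Asns and Atf4, the MOE430B probe set of Hspa5 and the further called Shmt2 probe set below carry it too. Any share of such binding was not tested.

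Shmt2, the mitochondrial enzyme that passes a carbon unit from serine to folate, ran from 2149.8 to 3662 with PDGF (median 3319), from 3489.8 to 4331 with EGF (median 4008), and at 3965, 4077 and 5569 with NT-3. It rose 1.43-fold with NT-3 over PDGF, above every PDGF sample (0.52 ± 0.17, adjusted p = 0.0436). Of the 9 fits that leave out 1 of these samples, 6 did not pass (adjusted p 0.0528 to 0.211). Each of the 7 differences of the group was above 0 for NT-3 against PDGF (median 0.29), as were 5827 of all 13882 genes. The remaining enzymes were not called on their leading probe sets. These are Psat1 and Psph of serine synthesis (0.29 ± 0.15 and 0.47 ± 0.21) and Mthfd2 and Aldh1l2 of mitochondrial folate metabolism (0.04 ± 0.24 and 0.13 ± 0.28). Over all 16 tested probe sets of the group, 8 rose with NT-3 over PDGF and 0 fell, where 7.31% and 11.8% of all probe sets did. For EGF against NT-3, 5 fell and 0 rose, where 7.9% and 12.3% of all probe sets did. These probe sets belong to only 7 genes, and those of 1 gene do not count as separate members. By gene, 1 of 7 rose with NT-3 over PDGF (7.02% of all genes). For EGF against NT-3, 1 of 7 fell (7.91%). A second Mthfd2 probe set was 2.12-fold higher with NT-3, at 8639, 6899.5 and 7921 against a PDGF median of 3762 and maximum of 4124 with PDGF (1.09 ± 0.16, adjusted p = 0.000309). Aldh1l2 was uneven among the NT-3 samples, at 17103, 4542 and 14761, and all 6 EGF samples (5712 to 6823) lay below all PDGF samples (8118 to 11789.8) without passing (−0.57 ± 0.22, adjusted p = 0.133).

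**Figure D3:**
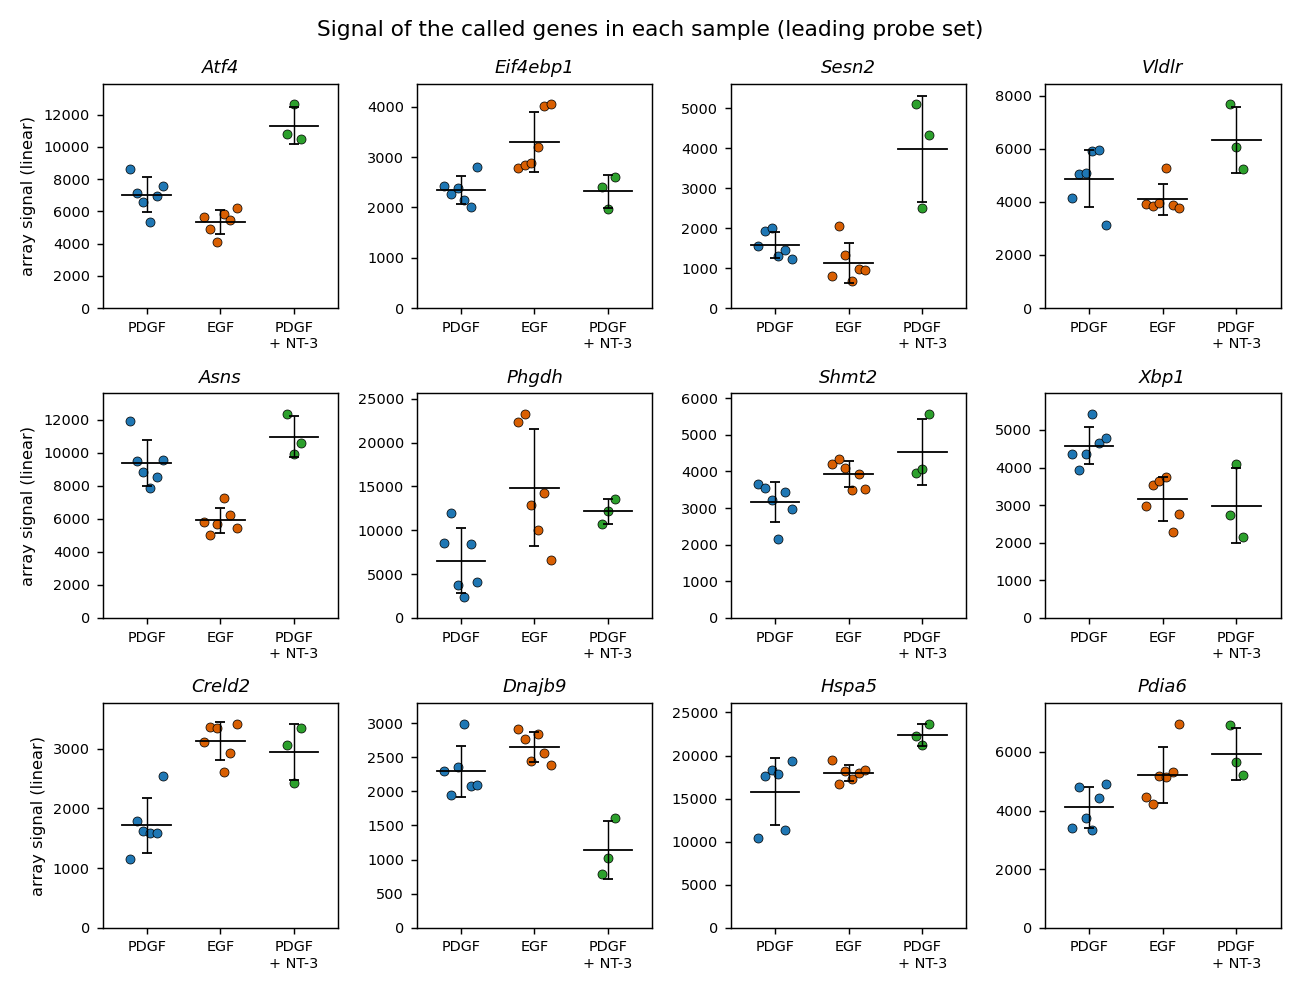
Array signal (linear axis from 0) of the 12 genes called in at least 1 comparison, by their leading probe set, in each of 6 PDGF, 6 EGF and 3 PDGF with NT-3 samples; bars show the mean and SD. NT-3 samples stand above the others for Atf4 and Sesn2 and below them for Dnajb9, and EGF samples stand below the others for Asns.

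Of the 2 tested regulators of the unfolded protein response, Xbp1 was lower in both other conditions than with PDGF, and Atf6 did not pass. Xbp1, whose spliced mRNA encodes the factor that raises ER chaperones and degradation genes, ran from 3946 to 5427 with PDGF (median 4502), from 2295 to 3757 with EGF (median 3262), and at 2738, 4081 and 2145 with NT-3. It fell 1.45-fold with EGF (−0.54 ± 0.16, adjusted p = 0.0369), below every PDGF sample, and 1.57-fold with NT-3 (−0.65 ± 0.20, adjusted p = 0.0283), where NT-3 replicate 2 lay within the PDGF range. Both calls were near the threshold: 8 of 12 and 3 of 9 fits without 1 sample did not pass (adjusted p 0.0551 to 0.0922, and 0.0535 to 0.163), nor did the fits with each array centred on its median (adjusted p = 0.095 and 0.109). A second Xbp1 probe set was 2.69-fold lower with NT-3 than with PDGF (−1.43 ± 0.29, adjusted p = 0.00316), and the other 2 gave 0.23 ± 0.29 and 0.27 ± 0.44. The arrays do not tell spliced from unspliced Xbp1. Atf6, the sensor that is cut to release its own transcription factor, gave −0.30 ± 0.23 with EGF and −0.63 ± 0.28 with NT-3 against PDGF and did not pass.

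Of the 11 ER chaperones and folding enzymes, Creld2 rose in both comparisons against PDGF, Hspa5 and Pdia6 rose with NT-3, and Dnajb9 fell with NT-3. Creld2, an ER protein with disulphide isomerase activity, ran from 1154 to 2548 with PDGF (median 1607) and from 2605 to 3419 with EGF (median 3229), with 3064, 2427 and 3351 with NT-3. All EGF samples and 2 of the 3 NT-3 samples lay above the highest PDGF sample. Creld2 rose 1.84-fold with EGF (0.88 ± 0.17, adjusted p = 0.00159), a call kept under every alternative, and 1.73-fold with NT-3 (0.79 ± 0.20, adjusted p = 0.0125). Without NT-3 replicate 3 the latter was 0.69 with an adjusted p of 0.059.

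Dnajb9 (ERdj4), a co-chaperone of Hspa5, ran from 1949 to 2992 with PDGF (median 2194), from 2383 to 2911 with EGF (median 2667), and at 789.7, 1026 and 1609.8 with NT-3. The 3 NT-3 samples lay below the other 12. It fell 2.03-fold against PDGF (−1.02 ± 0.20, adjusted p = 0.00264) and was 2.35-fold higher with EGF than with NT-3 (1.23 ± 0.20, adjusted p = 0.000425), calls that were kept under every alternative. Hspa5, the main ER chaperone, ran from 10387 to 19364 with PDGF (median 17727), where replicates 1 and 5 stood apart at the low end, from 16666 to 19428 with EGF (median 18112), and at 22248, 21235 and 23694 with NT-3. NT-3 samples lay above all others, a 1.45-fold rise over PDGF (0.54 ± 0.17, adjusted p = 0.0375). The call was lost in 5 of 9 fits without 1 sample (adjusted p 0.0588 to 0.114) and after quantile normalization (adjusted p = 0.149).

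The direction of Hspa5 also depended on the probe set. Its MOE430B probe set was lower with NT-3, at 31519, 19586 and 30194 against 29836 to 48080.2 with PDGF (−0.59 ± 0.19, adjusted p = 0.0376), and higher with EGF than with NT-3 (0.71 ± 0.19, adjusted p = 0.0139). That probe set carries the suffix for probes that can bind related transcripts. Pdia6, a disulphide isomerase, ran from 3350.2 to 4902 with PDGF (median 4085), from 4227 to 6965 with EGF (median 5166), and at 6913, 5671 and 5216 with NT-3. It rose 1.45-fold with NT-3 over PDGF, above every PDGF sample (0.53 ± 0.17, adjusted p = 0.0402), and 5 of 9 fits without 1 sample did not pass (adjusted p 0.0676 to 0.171).

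The 7 remaining folding genes were not called on their leading probe sets. For NT-3 against PDGF, Hsp90b1 (GRP94), Manf, Pdia4, Dnajc3 (p58IPK), Calr and Canx differed by 0.13 to 0.31, and Sdf2l1 by −0.52 ± 0.33. For EGF against PDGF, 10 of the 11 folding genes lay above 0 (median 0.24), as did 6380 of all 13882 genes. Only 1 of the 11 was called, as higher, where 6.06% of all genes were. By motif, 3 of the 7 genes with an ERSE rose with NT-3 on their leading probe sets (median 0.28), where 7.02% of all genes rose. Of these 3, Hspa5 has a probe set called the other way, and Hspa5 and Pdia6 lost the call in the fits without 1 sample given above. For EGF against PDGF, 1 of the 7 rose (6.06% of all genes), and for EGF against NT-3 0 were called. Of the 5 tested genes with a CARE, Asns fell with EGF against PDGF, where 5.99% of all genes fell. Asns and Vldlr fell with EGF against NT-3, where 7.91% of all genes fell, and 0 were higher in either. For NT-3 against PDGF, 0 of the 5 were called. These counts describe the lists, which were too short and too selected for a test.

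The ER-associated degradation genes gave no call: 0 of 2 tested genes passed by limma in any comparison, and on the leading probe sets 0 had an unadjusted p under 0.05. Herpud1, a stress-raised organiser of the degradation complex, had medians of 955 with PDGF and 752 with EGF, and signals of 439.9, 969 and 734 with NT-3. Its second probe set was lower with EGF without passing, at −1.40 ± 0.45 against PDGF (adjusted p = 0.0549) and −1.57 ± 0.55 against NT-3 (adjusted p = 0.0512). That probe set reached the array's median on 4 of 15 arrays, 0 of them with EGF. Sel1l, the adaptor of the ubiquitin ligase, gave −0.17 ± 0.24 with EGF and −0.60 ± 0.29 with NT-3 against PDGF, with 3 other tested probe sets that did not pass either.

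Probe sets of 1 gene often disagreed when NT-3 was involved. Among the 23 genes with several tested probe sets, all of a gene's probe sets shared their sign in 18 for EGF against PDGF, in 8 for NT-3 against PDGF and in 10 for EGF against NT-3. Psph and Canx allow a direct check, since the same probe set is printed on both arrays. Psph gave 0.47 ± 0.21 on MOE430A (adjusted p = 0.128) and 1.14 ± 0.21 on MOE430B (adjusted p = 0.00137) for NT-3 against PDGF. Canx gave 0.13 ± 0.19 and 0.74 ± 0.14 (adjusted p = 0.00214). For EGF against PDGF Canx gave 0.13 ± 0.15 and 0.52 ± 0.12 (adjusted p = 0.00603).

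Over the 96 probe sets with 1 symbol present on both arrays, signals on MOE430B were a median of 3.58 times those on MOE430A. For NT-3 against PDGF, 16 of them were called on MOE430A, 29 on MOE430B and 12 on both, with 0 in opposite directions. The sign was thus shared where both passed, while the calls on MOE430A were fewer. Each array had been scaled to a common level, so the signal ratio does not show which print is dimmer. The reason for the fewer calls was not tested. A second, dimmer probe set of Pdia4 was lower with NT-3 than with PDGF (−1.18 ± 0.38, adjusted p = 0.0393), while the leading Pdia4 probe set gave 0.26 ± 0.24. The dimmer one reached the array's median on only 3 of 15 arrays, 0 of them with NT-3, so the filter kept it through the conditions in which it was high and its call is no support for a fall. A second probe set of Dnajc3 was higher with EGF than with NT-3 (0.94 ± 0.32, adjusted p = 0.0455), while its leading one gave 0.08 ± 0.23. A further Shmt2 probe set rose with NT-3 over PDGF like its leading one (1.38 ± 0.39, adjusted p = 0.0194).

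**Figure D4:**
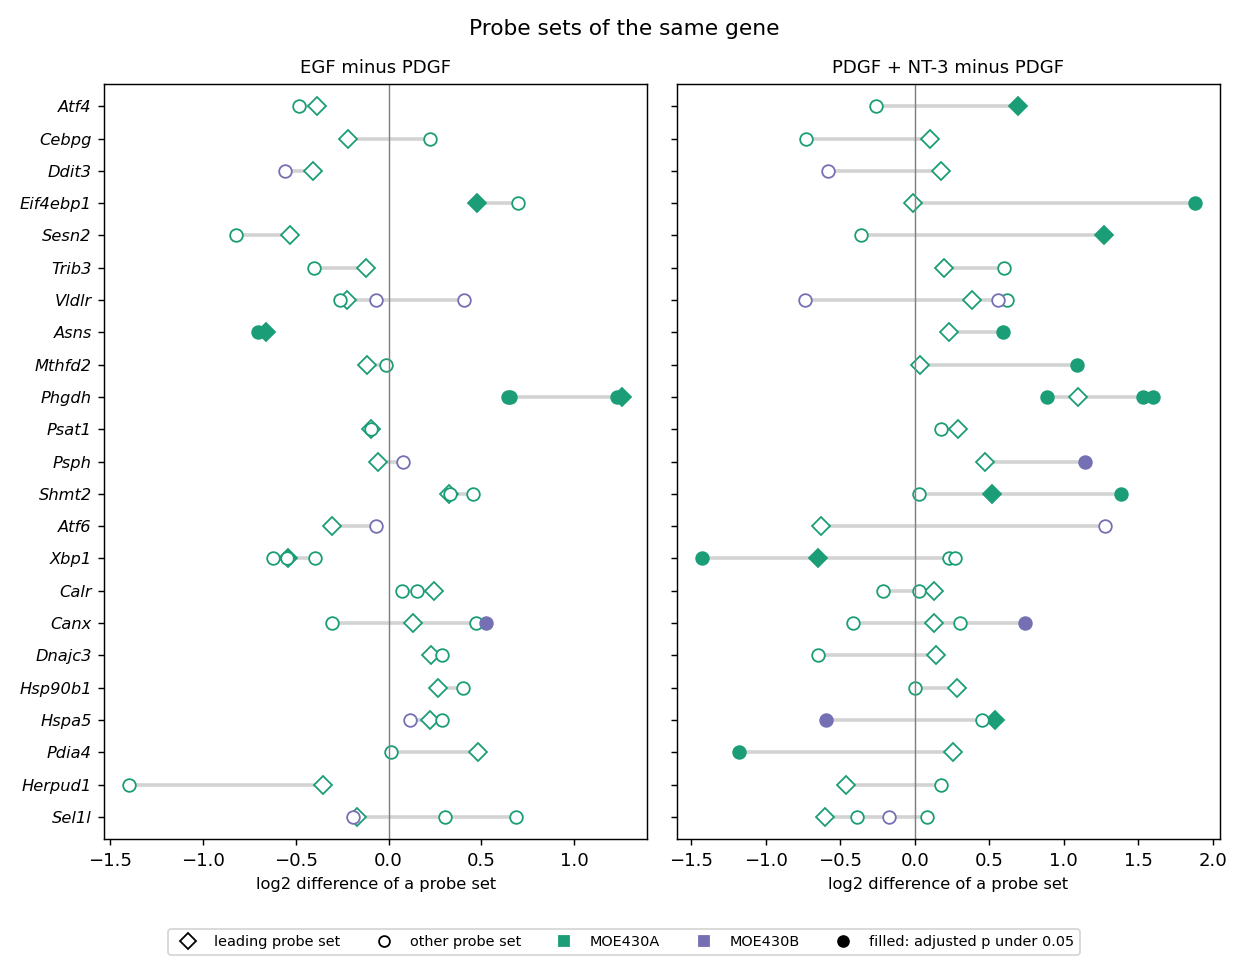
Log2 difference of every tested probe set of the 23 member genes with several, for EGF minus PDGF and PDGF with NT-3 minus PDGF; diamonds are leading probe sets, colours the array, and filled symbols have an adjusted p under 0.05. Hspa5 holds called probe sets on both sides of 0 with NT-3, while all 4 Phgdh probe sets lie above 0 in both panels.

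Within a condition, no replicate was the highest or the lowest for most of the stress genes. The median SD of these genes between samples on the log2 scale was 0.21 with PDGF, 0.25 with EGF and 0.31 with NT-3, below that of all genes (0.35, 0.34 and 0.41). With PDGF no replicate was the highest for more than 9 of the 33 genes (replicate 6, 16.2% of all genes) or the lowest for more than 9. With EGF these counts reached 11 (replicate 6, 16.6% of all genes) and 7. With NT-3, replicate 2 was the lowest of the 3 samples for 15 genes, among them Sesn2, Asns, Creld2 and Aldh1l2, and replicate 3 the highest for 15 (32.6% of all genes). Whether the stress genes moved together was not tested. Within the 3 fluidics runs shared by EGF and PDGF, the EGF minus PDGF difference ranged from −0.97 to −0.38 for Asns, from −0.89 to −0.35 for Xbp1, from 0.64 to 1.14 for Creld2, from 0.71 to 1.90 for Phgdh and from 0.26 to 0.75 for Eif4ebp1. All 5 kept their direction in every run. They were picked by their calls on these same samples, so this is no separate support. Members without a call did so too, such as Atf4 (−0.57 to −0.26) and Sdf2l1 (−0.66 to −0.35).

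**Figure D5:**
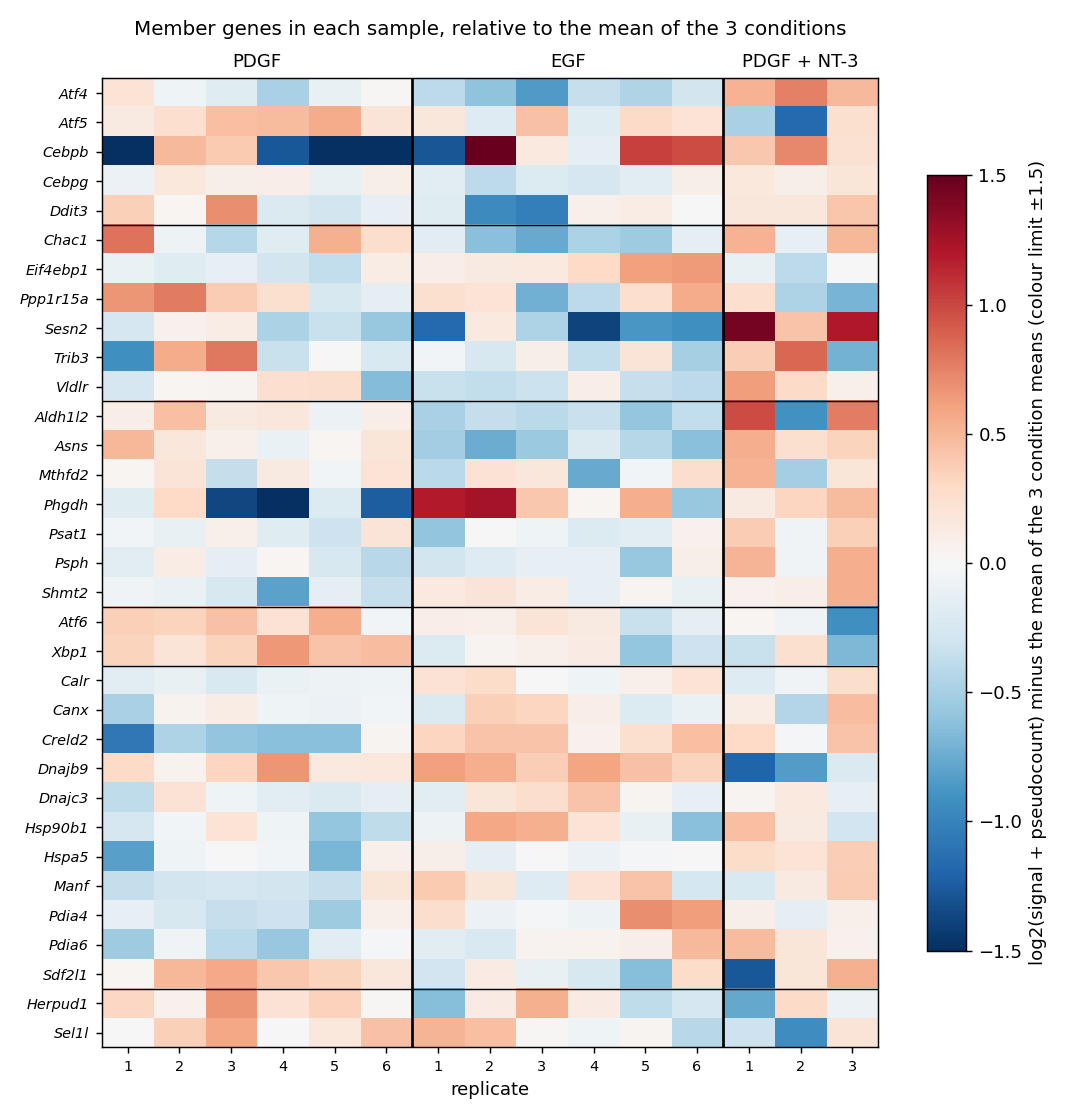
Log2 signal of the 33 tested member genes in each of the 15 samples, as the difference from the mean of the 3 condition means (red above, blue below, colours saturate at 1.5). Asns is blue in all 6 EGF samples, Dnajb9 is blue and Atf4 and Sesn2 are red in all 3 NT-3 samples, and Cebpb and Phgdh vary within conditions.

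Of 110 tested genes from 6 lists of the same or neighbouring pathways, 21 were called for EGF against PDGF (19.1%, members 15.2%, all genes 12.1%). For NT-3 against PDGF 24 were called (21.8%, members 24.2%, all genes 20.1%), and for EGF against NT-3 33 (30.0%, members 15.2%, all genes 21.4%). By direction, 6.06% of all genes rose and 5.99% fell with EGF against PDGF. With NT-3 against PDGF 7.02% rose and 13.1% fell, and the counts of each list below stand beside these shares. Among 17 other genes listed as ATF4 targets, most of amino acid metabolism or transport, 2 rose and 3 fell with EGF against PDGF. Of the 17, 11 lay above 0 (median 0.13), as did 6380 of all 13882 genes. The largest change was in Cebpd, a C/EBP factor, which rose (2.40 ± 0.40, adjusted p = 0.000535). The fallen genes include Bcat1 (−1.29 ± 0.13, adjusted p = 3.97e-06), which transaminates branched-chain amino acids, and Slc38a2 (−1.10 ± 0.15, adjusted p = 6.68e-05), a neutral amino acid transporter. The transaminase Gpt2 also rose with EGF (0.80 ± 0.12, adjusted p = 0.000265) and with NT-3 (0.66 ± 0.15, adjusted p = 0.00622). The transporter Slc1a4 rose with NT-3 (1.20 ± 0.20, adjusted p = 0.00065). Ddit4 (REDD1), an inhibitor of mTORC1, fell with NT-3 (−1.07 ± 0.27, adjusted p = 0.0117).

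Of 19 cytosolic aminoacyl-tRNA synthetases, 3 fell with EGF against PDGF, namely Rars (−0.56 ± 0.11), Nars (−0.41 ± 0.09) and Sars (−0.67 ± 0.17). With NT-3, 5 rose, among them Mars1 (0.94 ± 0.20) and Hars (0.92 ± 0.24), and Gars fell (−0.69 ± 0.12). Of 8 other folate enzymes, 4 rose with EGF over PDGF, among them the glycine-cleaving Gldc (1.96 ± 0.33) and Aldh1l1 (3.15 ± 0.28), which is also an astrocyte marker. Of 32 other ER genes, 3 rose with EGF, including P4hb (0.49 ± 0.11). With NT-3, 3 of these rose and 2 fell: Pdia3 (1.31 ± 0.27) and Ppib (0.99 ± 0.14) were among the first, and the fallen ones were Hyou1 (−1.27 ± 0.26) and Derl1 (−0.66 ± 0.11). Of 17 heat shock proteins outside the ER, 4 rose and 1 fell with EGF, and 3 rose and 3 fell with NT-3. Hspa1b fell with EGF (−1.07 ± 0.27) and Hspa1a with NT-3 (−1.35 ± 0.35). Mitochondrial Hspa9 rose in both (0.67 ± 0.12 and 0.62 ± 0.15), while mitochondrial Hspd1 rose with EGF (0.51 ± 0.12) and fell with NT-3 (−0.47 ± 0.14). Among 17 stress sensors and initiation factors, Eif2b4 rose with EGF (0.42 ± 0.13) and Ppp1r15b with NT-3 (0.36 ± 0.12), and neither Eif2ak3 (PERK) nor Ern1 (IRE1) passed.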

How the data were processed

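The deposited values are probe set signals, an intensity on a linear scale. The authors computed them with MAS5, as the submitters' processing notes record (the sources used here give no version). The trimmed mean of every array (2% off each end) lay between 1500.2 and 1500.77, so arrays had been scaled to a common level. Each of 15 RNA samples was hybridised to 2 arrays (30 arrays, 0 identical pairs). Scanner and fluidics settings, deposited as text of another kind, were read only for shared runs.

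Probe sets with 1 symbol in the platform tables were kept when their signal was no lower than the median of its array on 3 or more of 15 arrays. Log2 of signal plus the chip's 10th percentile was fitted with limma 3.58.1 in R 4.3.3 (files read with data.table, version 1.17.8), using lmFit, the 3 contrasts and eBayes with a mean-variance trend on 12 residual degrees of freedom. The fit was tested on simulated data. Alternatives covered scaling, pseudocount, filter, probe sets, samples, blocks and weights, and leaving out each sample.

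The members and all gene lists were chosen with earlier results of these data known. Every called member is named, those with the 8 smallest adjusted p of a comparison with values per sample, and from other pathway lists at most 3 genes per direction. The number of arrays limits the precision. Proteins are not used here.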

Additional observations from a re-analysis of the deposited data

Results flagged for a closer look

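Among the 12 genes called in any comparison, the 6 samples of PDGF and of EGF were examined for 1 sample standing apart from the rest (24 groups), by the gap to the nearest sample as a share of the whole range. In 1 group a sample stood apart: EGF replicate 4 had a Vldlr signal of 5289.8, where the other EGF samples lay between 3765 and 3949 (gap 0.86 of the range). Chance flags about 1 in 20 groups.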

How the results depend on the processing

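Of the 18 calls of single genes, those of Asns and Creld2 for EGF against PDGF, of Dnajb9 for NT-3 against PDGF, and of Atf4, Asns, Dnajb9 and Sesn2 for EGF against NT-3 passed under every alternative, and 0 of the 18 differences changed sign. Taken alone, the second tested probe sets of Atf4 and Sesn2 did not pass for EGF against NT-3. Array medians on MOE430A lay 0.13 lower with NT-3 than with PDGF on the log2 scale. With each array centred on its median, 1 member was lower for EGF against PDGF and 1 for NT-3 against PDGF, beside 2 and 6 higher. With no filter on signal, 1 was lower for EGF against PDGF. For EGF against NT-3, 2 were higher with the filter on mean signal, with 1 probe set per gene tested and with each chip fitted alone, which also gave 4 lower for EGF against PDGF. With only the 2 conditions compared, 3 were higher for NT-3 against PDGF. Array weights gave 5 lower for EGF against PDGF, 3 higher and 1 lower with 12 probe sets called for NT-3 against PDGF, and 9 probe sets called for EGF against NT-3. The cause of these shifts was not tested.

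Leaving out 1 sample at a time gave 1 to 3 members higher and 1 to 2 lower for EGF against PDGF. It gave 2 to 7 higher, 1 to 2 lower and 13 to 19 probe sets called for NT-3 against PDGF, and 1 to 2 higher and 3 to 7 lower for EGF against NT-3. Vldlr for EGF against NT-3 did not pass in 7 of 9 such fits (adjusted p 0.0528 to 0.163), and Eif4ebp1 for EGF against PDGF in 8 of 12 (0.0536 to 0.0951). With the replicate number as a block (replicate block), 1 member was lower for EGF against PDGF, and 3 were higher and 1 lower for NT-3 against PDGF. The calls of Eif4ebp1 and Xbp1 for EGF against PDGF did not pass with that block (adjusted p = 0.0522 and 0.0557) and did with the fluidics run as a block (0.0286 and 0.0124). EGF and PDGF samples of 1 number shared a fluidics run, and 5 of 6 were closest to their own number, a hint of pairing from the data. The labels do not say that a number marks a shared culture, and pairs correlated at only 0.0165 to 0.11, so the fit reported has no block.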
